A study of Homo sapiens with 16 samples.

Results

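The transcripts described here are those of SPOP, CUL3, TRIM24 and the BET bromodomain genes BRD2, BRD3 and BRDT. Their m6A regions were taken as the regions of the study's merged list that lie wholly inside the GENCODE span of 1 of these 6 genes on hg38, and their peaks as the peaks of the 8 lists of immunoprecipitated (IP) RNA that lie inside the same spans. This gave 21 of 36970 merged regions and 115 of 191974 peaks. SPOP, CUL3 and TRIM24 held 1 region each, BRD2 held 7, BRD3 held 11 and BRDT, whose expression is normally restricted to the testis, held none. Regions are numbered below from the 5′ to the 3′ end of their gene.

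The series compared C4-2B prostate cancer cells, sensitive to the antiandrogen enzalutamide, with MDV-R cells, an enzalutamide-resistant derivative that was obtained from C4-2B by serial exposure to the drug. Both lines are labelled wild type and were harvested at day 3, and each contributed 4 IP libraries and 4 input libraries, the latter prepared without antibody. Per the study's methods MDV-R cells were kept in medium with enzalutamide, so that resistance and the presence of the drug cannot be told apart. Each group is a single cell line, the labels do not say whether the sequenced replicates are separate cultures, and p-values then measure the spread between these libraries.

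SPOP is the substrate adaptor of a ubiquitin ligase built on the scaffold CUL3, and it is recurrently mutated in prostate cancer. TRIM24, a transcriptional coactivator, and BRD2 and BRD3, which bind acetylated histones and promote transcription, are among the proteins it marks for degradation. N6-methyladenosine (m6A) is a modification of adenosines in mRNA, typically within the motif DRACH (D is A, G or T, R is A or G, H is A, C or T) and often near stop codons and in long exons, and it is read by proteins that act on mRNA splicing, translation and decay.

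A few stretches of hg38 show what lay under 1 summit of each of the regions called most widely, that of the strongest peak with its summit inside the region. Each is the 21 nt on the strand of the gene around the motif nearest the summit, at the 6 regions called in all 8 lists and at the CUL3 region, and the capitals mark the DRACH match, with the methylatable A in its middle.
SPOP region 1 (chr17:49600248-49600268, minus strand): aggggaagAGACTgcattgtg
CUL3 region 1 (chr2:224474301-224474321, minus strand): gtattgaaGGACTtattgaga
TRIM24 region 1 (chr7:138585105-138585125, plus strand): atttctgtTAACCtcttatca
BRD2 region 1 (chr6:32971784-32971804, plus strand): gcttgggaAGACTttgttgga
BRD3 region 7 (chr9:134036314-134036334, minus strand): cctgccccAGACAgctgaaga
BRD3 region 9 (chr9:134033568-134033588, minus strand): ctggcttcGGACAgaacagga
BRD3 region 11 (chr9:134030921-134030941, minus strand): cactgctgAGACCtgtagggc
The A of the motif lay 5 nt upstream of the summit in SPOP and TRIM24, 1 nt upstream in BRD3 region 9, 9 nt upstream in BRD3 region 7 and 13 nt upstream in BRD2 region 1. It lay 14 nt downstream in BRD3 region 11 and 18 nt downstream in CUL3. Summits of other lists can lie elsewhere. In BRD3 region 9 the summit used was that of MDV-R replicate 1 (position 134033577). MDV-R replicate 2 had its summit at 134033589 and all other lists had theirs at 134033440 to 134033487. A match describes these letters and does not show that the base was methylated.

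The libraries differed in depth. The C4-2B lists held 13191 to 24746 peaks and the MDV-R lists 23880 to 30645, the lowest number being that of C4-2B replicate 1. Depth recovered from the peak statistics was 0.864 to 1.21 Mtags (mega tags, a tag being a kept read) per IP library in C4-2B and 0.896 to 1.03 Mtags in MDV-R, whereas the input libraries held 0.901 to 1.23 Mtags in C4-2B and 1.60 to 2.97 Mtags in MDV-R. T24R2 appears in the titles of MDV-R samples, whose grouping follows the cell line field. Of 8 prostate luminal markers, among them KLK2 and HOXB13, 6 had a peak in 7 of the 8 lists and 4 in C4-2B replicate 1. Of 10 urothelial or T24 markers, 3 had a peak in each of 7 lists and 2 in C4-2B replicate 1. UPK2 and VIM had a peak in all 8 lists, UPK3A in 6 and CD44 in 1, and UPK1A, UPK1B, KRT5, KRT14, CAV1 and AXL had none. KRT8 and KRT18, which are luminal keratins, had none either.

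SPOP carried a single region, in the 3′ untranslated region (UTR), and it was called in all 8 lists. The region (chr17:49599480-49600598) spans the end of the coding sequence, and its summit lay 125 nt after the stop codon in exon 10 of 10. The summit held 135, 130, 141 and 128 IP tags in C4-2B replicates 1 to 4 and 149, 177, 166 and 128 in MDV-R replicates 1 to 4. These were among the strongest peaks of every list, between the 92.4th and the 98.5th percentile of the −log10 p-values. The lists' summits fell within 47 nt of each other, and no further peak was called inside the span of SPOP in any list.

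CUL3, the scaffold of the ligase, also carried a single region (chr2:224474119-224474629). Its summit lay in the coding part of exon 16 of 16, at −84 nt from the first base after the stop codon, and a long noncoding RNA on the opposite strand (ENSG00000274629) overlaps the region. The peak was absent from C4-2B replicate 1 and held 51, 48 and 54 IP tags in C4-2B replicates 2 to 4 and 38, 41, 57 and 42 in MDV-R. Its fold enrichment, the ratio of the IP pileup to the local background, was 3.13, 4.04 and 3.05 in those C4-2B lists and 3.87, 6.26, 2.61 and 6.57 in MDV-R. The values of the lines overlapped.

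TRIM24 carried 1 region inside its span, again just past the stop codon, and it was called in all 8 lists. The region (chr7:138584613-138585503) had its summit 169 nt after the stop codon in exon 19 of 19, with 81, 79, 75 and 88 IP tags in C4-2B and 80, 99, 93 and 69 in MDV-R. A second merged region at the first exon (chr7:138460225-138460853) begins upstream of the span and was not counted among the 21. Peaks in 3 lists of C4-2B and 2 of MDV-R overlapped it, and 3 of its peaks lay inside the span.

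BRD2 carried 7 regions over its 13 exons, of which 1 was called in all 8 lists. BRD2 region 1 (chr6:32971346-32971841) lay in exon 2, a 1333-nt exon that is part of the 5′ UTR of the canonical transcript and coding in other annotated transcripts. Its summit held 52, 55, 48 and 40 IP tags in C4-2B and 48, 49, 56 and 65 in MDV-R. In MDV-R replicate 4 that summit (position 32971879) lay past the end of the region. BRD2 regions 5, 6 and 7, in exons 9, 11 and 13, were called in 3, 1 and 2 C4-2B lists and in 4, 3 and 4 MDV-R lists. BRD2 region 7 was classed as coding by the summit of MDV-R replicate 4 (position 32980612), the only summit inside the region. In the other lists that called it the summits (32980742 to 32980778) lay past its end, in the 3′ UTR of exon 13. BRD2 regions 2 and 4 had intronic summits 23 and 18 nt from the nearest exon and were called in 1 and 3 C4-2B lists and in all 4 MDV-R lists. BRD2 region 3 (chr6:32974819-32975288) overlapped no peak of any list. MDV-R replicate 2 held 1 further peak at the 5′ end of the gene that overlapped no merged region.

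BRD3 carried the most regions, 11 over 12 exons, and 3 of them were called in all 8 lists. BRD3 region 9 (chr9:134032629-134033943) covered the stop codon, with its strongest summit 13 nt after it in exon 12 of 12, and held 78, 90, 73 and 74 IP tags in C4-2B and 75, 78, 75 and 62 in MDV-R. BRD3 region 11 (chr9:134030398-134031516) lay in the same exon, 2645 nt after the stop codon and 641 nt before the end of the mRNA, with 40, 42, 29 and 32 IP tags in C4-2B and 41, 48, 45 and 36 in MDV-R. BRD3 region 7 (chr9:134035690-134036605) lay in coding exon 10, at −528 nt from the first base after the stop codon, with 51, 68, 50 and 42 IP tags in C4-2B and 49, 54, 54 and 46 in MDV-R. The IP tags of the lines overlapped at all 3 regions. BRD3 regions 8 to 11 overlap the span of BRD3OS, a gene on the opposite strand, and the peak lists do not state a strand.

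The 8 other BRD3 regions were called in part of the lists. BRD3 regions 5, 6 and 8 were called in 2, 2 and 3 C4-2B lists and in all 4 MDV-R lists. BRD3 regions 1, 2, 3, 4 and 10 were called in no C4-2B list and in 2, 3, 1, 1 and 1 of those of MDV-R, their summits holding 11 to 29 IP tags. BRD3 region 2, which was called in 3 MDV-R lists, held 18, 16 and 29 IP tags in MDV-R replicates 1, 2 and 3 and had no peak in replicate 4, the list with the most peaks.

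**Figure D1:**
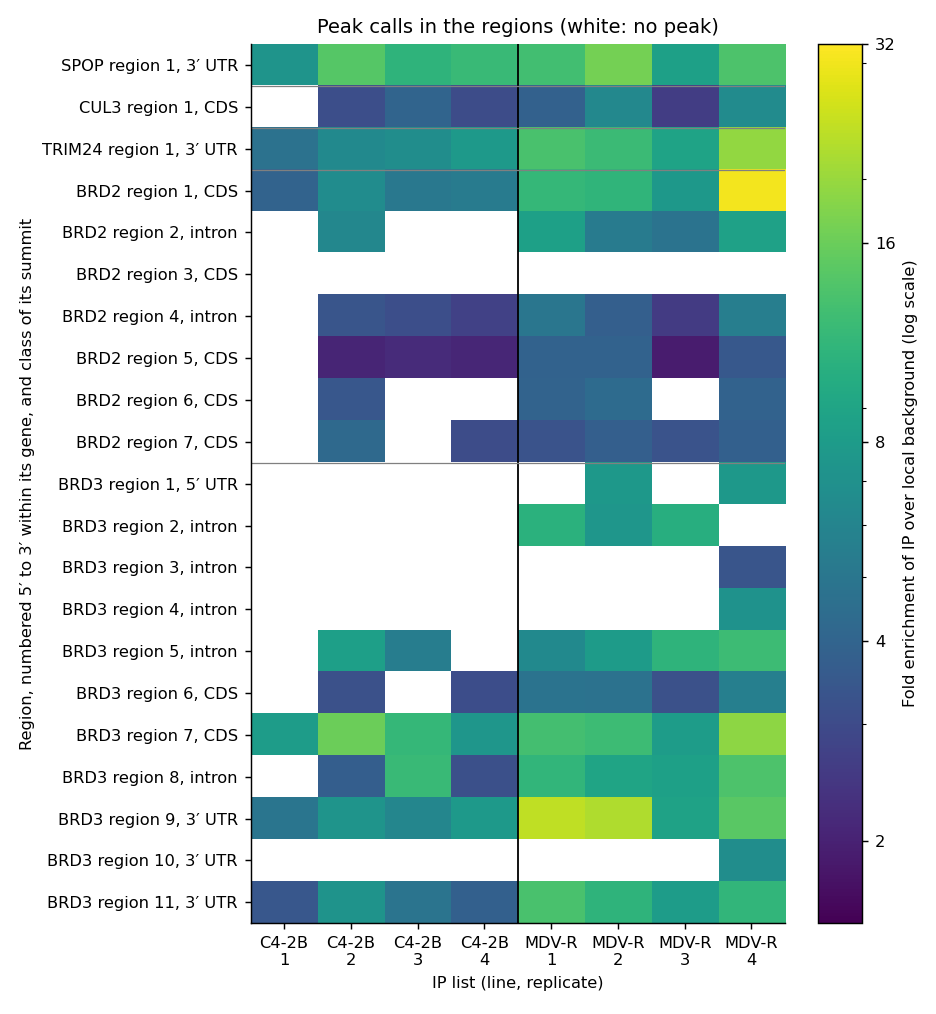
Peak calls in the 21 regions (rows, with the class of the summit over all annotated transcripts, or of the midpoint for BRD2 region 3) in the 8 IP lists (columns), colored by fold enrichment on a log scale, with white where no peak was called. SPOP, TRIM24, BRD2 region 1 and BRD3 regions 7, 9 and 11 are filled in all 8 lists, and 5 regions of BRD3 are white in all 4 C4-2B lists.

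By position, each region was classed over all annotated transcripts by 1 summit, that of its strongest peak with the summit inside the region. So classed, 7 of the 20 regions with a peak had their summit in coding sequence, 7 in introns, 5 in 3′ UTRs and 1 in a 5′ UTR. The lists did not always agree, as at BRD2 region 7. At BRD3 region 8, classed as intronic, C4-2B replicates 2 and 4 and MDV-R replicate 2 had their summit in exon 11. On the canonical transcript the summits of the lists also fell on both sides of an exon edge at BRD2 region 2 and BRD3 regions 2 and 6. BRD2 region 1, classed as coding, lies in the 5′ UTR of the canonical transcript. The intronic summits, 2 in BRD2 and 5 in BRD3, lay 18 to 87 nt from an exon of the canonical transcript, and exons made up 13.4% to 73.8% of those regions. Of the 6 regions called in all 8 lists, 4 lay in the last exon of their gene and 3 of these (SPOP, TRIM24 and BRD3 region 9) had their summit within 300 nt after the stop codon.

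**Figure D2:**
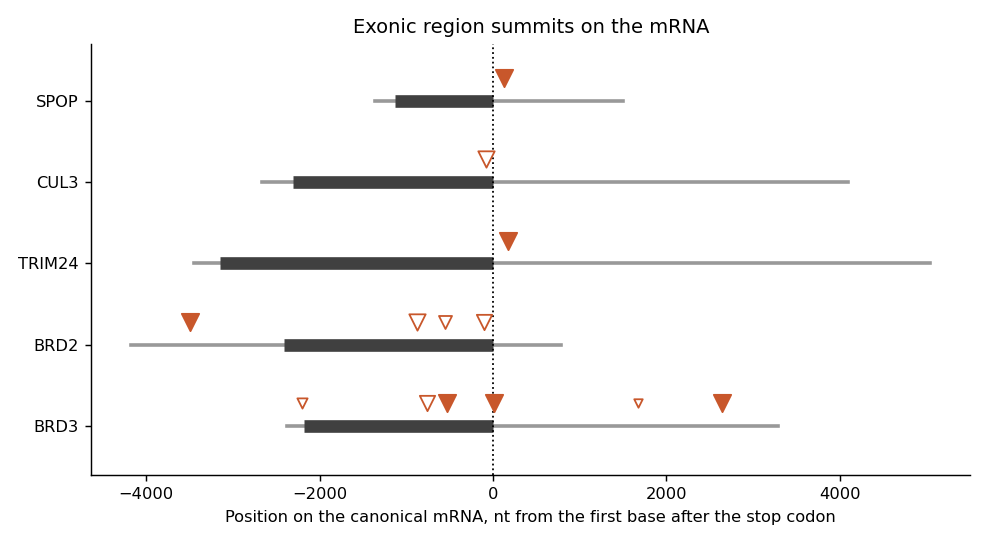
Summits of the exonic regions on the canonical mRNA of 5 genes, in nt from the first base after the stop codon (x axis). Thick bars are coding sequence, thin lines are UTRs, triangles grow with the number of lists and are filled where all 8 lists called the region. Filled triangles of SPOP, TRIM24 and BRD3 stand just right of the dotted line at the stop codon, and that of BRD2 stands in its long 5′ UTR.

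GGAC, a common core of the m6A motif, was searched on the sense strand, whatever base followed. The search covered the 50 nt on either side of the 1 summit used per region, and GGAC was found at 7 of the 20 regions with a peak, or 35%. Of the 13 regions with an exonic summit 5 held it, or 38.5%, and among all exonic summits its share was 46.9% ± 1.1 (SD, n = 8 lists). The units differ, the former share counting 1 summit per region over all lists and the latter every exonic peak of each list. Among the 6 regions called in all lists GGAC was present at that summit in TRIM24 and BRD3 region 9 and not in SPOP, BRD2 region 1 or BRD3 regions 7 and 11. In TRIM24 it lay 48 nt upstream, near the edge of the window. Presence depended on the summit used. Over all peaks inside the spans GGAC was found at 3 of 11 in TRIM24 and 11 of 51 in BRD3. It was found at 0 of 8 in SPOP, 6 of 7 in CUL3 and 17 of 38 in BRD2. DRACH, which includes GGAC unless G follows it, as in TRIM24, was found at 18 of 20 regions, and at 13 of the 13 with an exonic summit, beside 89.5% ± 0.905 (SD, n = 8 lists) of all exonic summits.

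The first comparison asked whether these transcripts carried an m6A region in one line alone. No region was called in all 4 lists of a line and in none of the other line, beside 3.68% of the 36076 merged regions with a peak for MDV-R and 1.22% for C4-2B. All 8 lists called 6 of the 20 regions with a peak, or 30%, and 25.9% of all merged regions with a peak. Where the lines differed in calls, MDV-R had more of them. It had more lists than C4-2B at 14 of 20 regions (49.7% of all regions with a peak) and fewer at 0 of 20 (18.4%). At 5 of 20 regions, all in BRD3, peaks were called in MDV-R alone (28.3% of all regions), and at 0 of 20 in C4-2B alone (13.3%).

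These 5 regions had few IP tags and were called in 1 to 3 MDV-R lists each. Their summits held 11 to 29 IP tags with a fold enrichment of 3.34 to 10.6, beside 29 to 177 IP tags and a fold enrichment of 3.43 to 30.2 at the 6 regions called everywhere. By −log10 p they stood between the 0.289th and the 59.6th percentile of their lists. MDV-R replicate 4 called 4 of the 5, and 3 of them were called in that list alone. By Fisher's exact test (two-sided) none of the 20 regions had an unadjusted p under 0.05, and over all 36076 regions the smallest adjusted p was 0.584, so that 0 regions passed although 1766 had an unadjusted p under 0.05. With 4 lists against 4 the smallest possible p is 0.0286. Without C4-2B replicate 1, the smallest list, the share of lists was higher in MDV-R at 10 of 20 regions (41.7% of all regions) and equal at 10. The part of list size in these counts was not tested further.

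Peaks per gene showed the same order. BRD3 held 3, 6, 5 and 5 peaks in C4-2B replicates 1 to 4 and 7, 8, 7 and 10 in MDV-R replicates 1 to 4, with means of 4.75 ± 1.26 and 8 ± 1.41 (SD, n = 4 lists per line). The lines did not overlap, which held in this direction for 6.04% of the 16158 genes with a peak and in the other for 1.8%. The exact two-sided permutation p was 0.0286, the smallest that 70 arrangements allow, with an adjusted p of 0.364 over all 16158 genes, and without MDV-R replicate 4 the exact permutation p was 0.0571. With every list limited to its 13191 strongest peaks, an alternative chosen after seeing the data, BRD3 held 3, 6, 3 and 3 peaks in C4-2B and 6, 5, 7 and 6 in MDV-R (exact permutation p = 0.114), and the lines overlapped.

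BRD2 held 1, 6, 3 and 4 peaks in C4-2B and 6, 7, 5 and 6 in MDV-R, and the lines overlapped (exact permutation p = 0.114). Without C4-2B replicate 2 this exact permutation p was 0.0286, and with lists of equal size BRD2 held 1, 4, 1 and 1 peaks in C4-2B and 4, 1, 1 and 3 in MDV-R (exact permutation p = 1). SPOP held 1 peak in every list, CUL3 1 in every list but C4-2B replicate 1, and TRIM24 1 or 2.

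**Figure D3:**
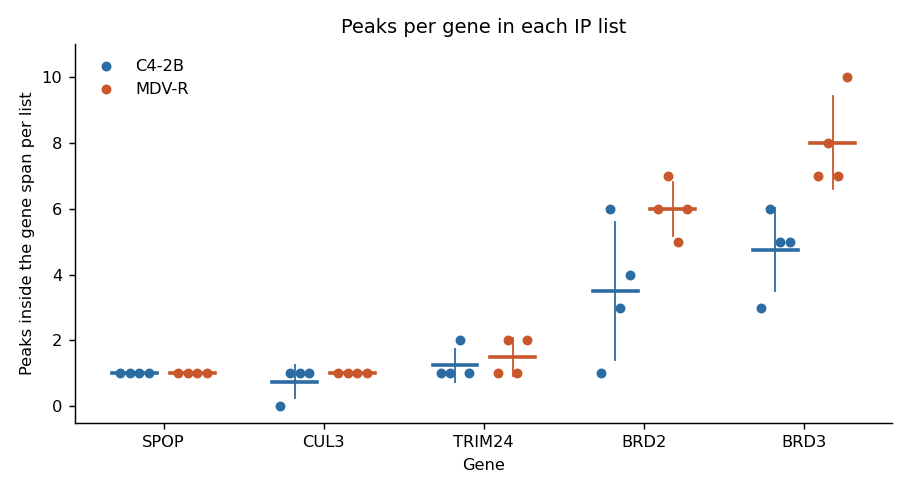
Peaks inside the span of each gene (y axis) in each of the 8 IP lists, with the mean (bar) and SD (line) per line, n = 4. The 4 MDV-R lists of BRD3 stand at 7 to 10, above the 3 to 6 of C4-2B, and the lines overlap in the other 4 genes.

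The second comparison asked whether the regions shared by all lists differed in strength. Fold enrichment was higher in every MDV-R list than in every C4-2B list at 4 of the 6 shared regions of these genes, beside 10.2% of the 9327 regions called in all 8 lists, and 0.943% of those were lower in every MDV-R list. The 4 were TRIM24 region 1, BRD2 region 1 and BRD3 regions 9 and 11. None of the 6 passed limma after each list was centered on its median, with 246 of 9327 regions passing over all, 0.847% higher and 1.79% lower in MDV-R.

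In BRD2 region 1 fold enrichment was 3.98, 6.67, 5.12 and 5.38 in C4-2B and 11.5, 11.1, 7.68 and 30.2 in MDV-R, the value of MDV-R replicate 4 lying far above the others. That value was taken at a summit past the end of the region (32971879), and those of the other lists at 32971758 to 32971807. The log2 difference after centering was 0.93 ± 0.28 (SE; limma, adjusted p = 0.0834). In BRD3 region 9, over the stop codon, it was 4.94, 7.28, 6.10 and 7.89 in C4-2B and 23.9, 22.3, 8.73 and 14.6 in MDV-R, with a log2 difference of 0.92 ± 0.27 (SE; limma, adjusted p = 0.0776). Each value belongs to the list's own summit. That summit lay at 134033577 and 134033589 in MDV-R replicates 1 and 2 and at 134033440 to 134033487 in the other lists. All MDV-R values exceeded those of C4-2B in both regions, with MDV-R replicate 3 closest to them.

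BRD3 region 11, in the distal 3′ UTR, had values of 3.43, 7.25, 4.89 and 3.85 in C4-2B and 13.2, 10.9, 8.18 and 11.2 in MDV-R, with a log2 difference of 0.80 ± 0.25 (SE; limma, adjusted p = 0.0924). TRIM24 region 1 had values of 4.73, 6.40, 6.74 and 7.81 in C4-2B and 13.3, 12.1, 8.84 and 19.5 in MDV-R, with a log2 difference of 0.63 ± 0.23 (SE; limma, adjusted p = 0.154). Again the lines did not overlap, and MDV-R replicate 3 was the lowest of its line.

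At both other shared regions the lines overlapped. SPOP region 1 had values of 7.27, 14.2, 11 and 12 in C4-2B and 12.6, 16.9, 8.51 and 13.6 in MDV-R, and its log2 difference was −0.19 with centering, with a 95% interval of −0.66 to 0.29 (limma, adjusted p = 0.723), and 0.21 without it. BRD3 region 7 had values of 8.18, 16.1, 11.5 and 7.51 in C4-2B and 12.8, 12.2, 8.11 and 19.0 in MDV-R, with a log2 difference of −0.13 ± 0.26 with centering (SE; limma, adjusted p = 0.838) and of 0.27 without it.

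**Figure D4:**
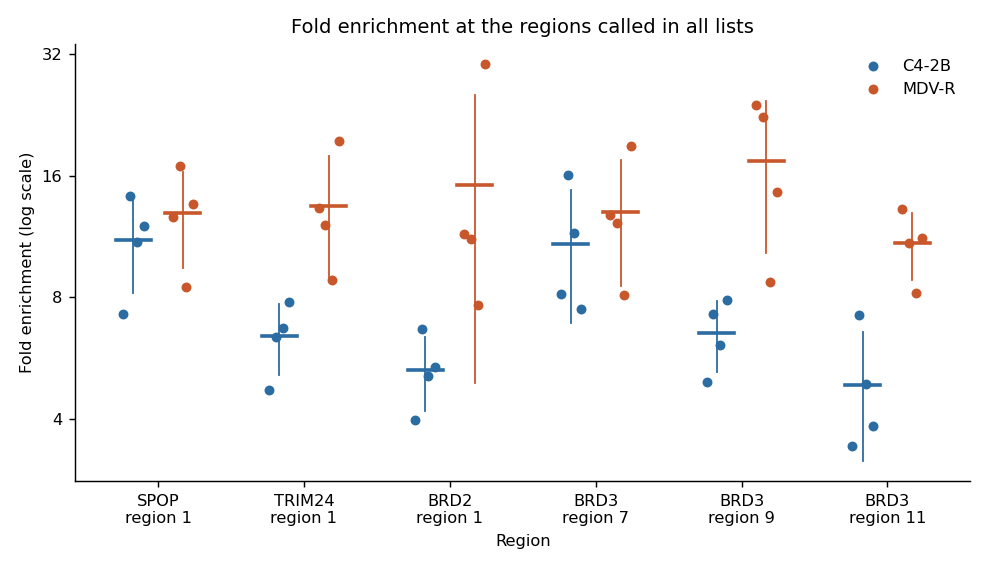
Fold enrichment (y axis, log scale) at the 6 regions called in all 8 lists, 1 point per list, with the mean (bar) and SD (line) per line, n = 4. The lines are apart at TRIM24 region 1, BRD2 region 1 and BRD3 regions 9 and 11, and overlap at SPOP region 1 and BRD3 region 7.

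The median log2 difference was 0.72 over the 6 regions and 0.03 over all 9327. Centering removes a shift of all regions toward MDV-R, whose median was 0.44 on the log2 scale without it. Without centering 339 of 9327 regions passed, 318 of them higher in MDV-R (93.8%, against 32.1% with centering), and BRD2 region 1 (adjusted p = 0.0194) and BRD3 regions 9 (0.0209) and 11 (0.0360) were among them by limma.

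Fold enrichment is a ratio, and its sides were recovered separately from the peak statistics. On the IP side the summit tags, scaled to the size of the library as CPM, overlapped between the lines at all 6 regions, and none passed limma, beside 19.8% of 9321 regions that passed higher and 14.7% that passed lower in MDV-R (57.4% of the calls were higher, against 46.3% with the lists centered). Over all regions 20.8% were higher and 11.1% lower in every MDV-R list. SPOP region 1 had 135 ± 18.3 CPM among the C4-2B lists and 164 ± 18.6 among those of MDV-R (SD, n = 4), a log2 difference of 0.29 ± 0.16 (SE; limma, adjusted p = 0.166). BRD3 region 9 had 79.4 ± 10.9 and 77.1 ± 7.08 CPM, a log2 difference of −0.04 ± 0.16 (SE; limma, adjusted p = 0.883). The largest difference among the 6 was that of BRD3 region 11, with 35.7 ± 4.64 CPM among the C4-2B lists and 45.1 ± 4.51 among those of MDV-R, a log2 difference of 0.34 ± 0.16 (SE; limma, adjusted p = 0.0923).

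The local background, in multiples of the average background of its library, was lower in every MDV-R list than in every C4-2B list at the same 4 regions, TRIM24 region 1, BRD2 region 1 and BRD3 regions 9 and 11, beside 15.5% of 9321 regions (2.06% were higher in every MDV-R list). By limma 2 of the 6 passed as lower in MDV-R, beside 11% of all regions lower and 1.66% higher. BRD3 region 9 had a background of 36.6, 34.2, 35.8 and 29.6 in C4-2B and 7.25, 8.09, 22.5 and 11.1 in MDV-R, a log2 difference of −1.62 ± 0.42 (SE; limma, adjusted p = 0.0161). The 7.25 and 8.09 of MDV-R replicates 1 and 2 were taken at summits that lay apart from those of the other lists. The part of summit position in this difference was not tested. BRD2 region 1 had 30, 22, 27.5 and 23 in C4-2B and 10.9, 11.1, 18.8 and 3.96 in MDV-R, a log2 difference of −1.38 ± 0.45 (SE; limma, adjusted p = 0.0478). The 3.96 of MDV-R replicate 4 was taken at a summit past the end of the region. Both calls rest on few input tags. Not scaled to library size, the background of BRD3 region 9 equaled 11, 14, 13 and 9 input tags in C4-2B and 6, 8, 12 and 9 in MDV-R. That of BRD2 region 1 equaled 9, 9, 10 and 7 input tags in C4-2B and 9, 11, 10 and 3.2 in MDV-R. The lines overlapped in these unscaled values at both regions.

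Both calls were lost when some single libraries were left out, and that of BRD2 region 1 also under another scaling. The median over all 9321 regions was −0.48, against −1.05 over the 6. With the lists centered on their shared regions 46.4% of the passing regions were higher in MDV-R, against 13.2%, and BRD2 region 1 no longer passed (log2 difference −0.89, limma, adjusted p = 0.0800), while BRD3 region 9 did (−1.13, adjusted p = 0.0266). BRD3 region 9 did not pass without MDV-R replicate 1 (limma, adjusted p = 0.0787) or replicate 2 (0.0709), while BRD2 region 1 did not pass without any 1 of the lists other than MDV-R replicate 3 (0.0698 to 0.160). The log2 differences ranged from −1.97 to −1.42 in BRD3 region 9 and from −1.70 to −0.95 in BRD2 region 1 over these leave-outs. Without MDV-R replicate 3, which had the shallowest input of its line (1.60 Mtags) and the highest background of its line at all 6 regions, 4 of the 6 passed as lower in MDV-R. The input libraries of MDV-R were deeper than those of C4-2B, and the part of input depth in these differences was not tested. Local background only approximates the abundance of a transcript, and in bulk samples fewer cells of a type and less RNA per cell cannot be told apart.

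**Figure D5:**
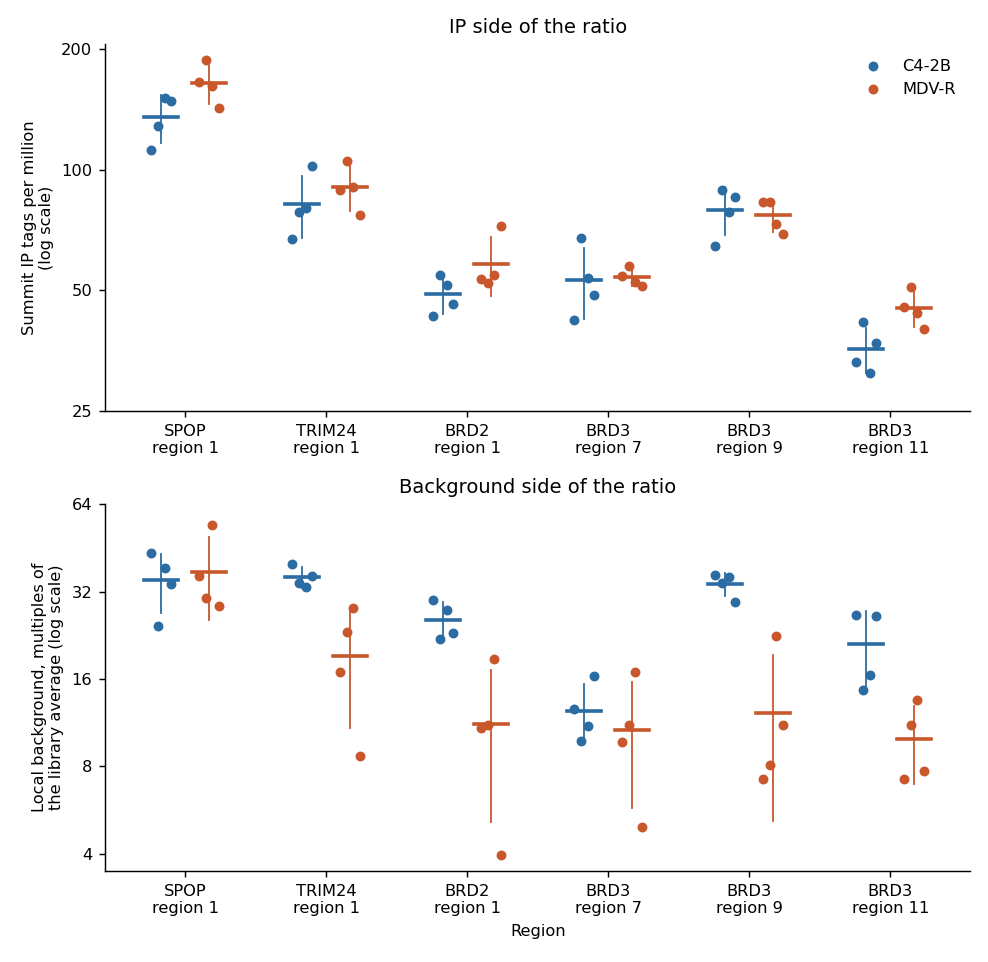
The IP side (upper panel, summit IP tags in CPM) and the background side (lower panel, multiples of the library average) of the fold enrichment at the 6 shared regions, both on log axes, 1 point per list, with mean (bar) and SD (line) per line, n = 4. The IP tags of the lines overlap at all 6 regions, and the MDV-R background lies below that of C4-2B at TRIM24 region 1, BRD2 region 1 and BRD3 regions 9 and 11.

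Genes that act with these members were described by 4 lists, whose genes were named by a rule. Of 38 other adaptors, ligase subunits and regulators, 27 had 67 merged regions. Of their 28 regions called in all 8 lists none passed limma for fold enrichment (median log2 difference −0.02), 2 (7.14%) were higher and 2 (7.14%) lower in IP tags, and 4 (14.3%) were lower in background, beside 19.8%, 14.7% and 11% of all shared regions. SPOPL, the paralog of SPOP, had more IP tags in MDV-R (log2 difference 0.63 ± 0.17 SE, adjusted p = 0.00375), as had a region of DCUN1D3, a cofactor of cullin neddylation (0.50 ± 0.16 SE, adjusted p = 0.0117). A region of KBTBD8 (−0.70 ± 0.16 SE, adjusted p = 8.3e-04) and a region of RHOBTB2 (−0.59 ± 0.17 SE, adjusted p = 0.00439), both CUL3 adaptors, had fewer. Both regions also passed as lower in background (−1.44 and −1.21, limma, adjusted p = 0.0459 and 0.0494). Their fold enrichment differed by −0.09 and 0.002. COPS2, a subunit of the COP9 signalosome, also had a lower background (−1.83 ± 0.46 SE, adjusted p = 0.0139). A region called in 4 MDV-R lists and 0 of C4-2B lay in each of NEDD8 and KLHL21. Both genes meet the condition of the rule, but these regions have no difference in fold enrichment to be ranked by. They were named beyond the limit of 5 genes, after their values were seen.

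Of 27 other proteins known as SPOP substrates, 21 had regions, 67 in all. None of their 19 shared regions passed for fold enrichment (median log2 difference 0.26), and 5 (26.3%, beside 19.8% of all shared regions) passed for IP tags, each of them higher in MDV-R. They lay in the Hippo pathway kinase LATS1, which held 3, in the prolyl hydroxylase EGLN2 and in ARID1B, a subunit of a chromatin remodeler. These 3 LATS1 regions differed by 0.44 to 0.58 on the log2 scale of IP tags, the largest by 0.58 ± 0.16 (SE; limma, adjusted p = 0.00357). A further shared region of LATS1 did not pass (0.13 ± 0.18 SE, limma, adjusted p = 0.625), nor did the other shared regions of EGLN2 and ARID1B. Of the 3 regions of this list called in all 4 MDV-R lists and 0 of C4-2B, 1 lay in GLI2, a transcription factor of the hedgehog pathway. Regions with more MDV-R than C4-2B lists made up 56.7% of those called here, 43.9% in the adaptor list, 54.1% in the bromodomain list and 29.0% among BET partners, beside 49.7% of all regions.

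Of 35 TIF1 and other bromodomain genes, 32 had 128 regions, and 1 of 46 shared regions passed for fold enrichment, in SP110, an interferon-induced nuclear body protein (log2 difference −1.01 ± 0.26 SE, adjusted p = 0.0447). For IP tags 6 (13%) passed as higher and 1 (2.17%) as lower in MDV-R, beside 19.8% and 14.7% of all shared regions, the highest being BAZ2B (1.57 ± 0.16 SE, adjusted p = 8.7e-11) and BRD7 (1.20 ± 0.16 SE, adjusted p = 8.4e-08). The background was higher at a region of CECR2 (2.08 ± 0.46 SE, adjusted p = 0.00548) and lower at a region of BRWD1 (−1.26 ± 0.39 SE, adjusted p = 0.0387). The CECR2 region also had more IP tags in MDV-R (0.80 ± 0.16 SE, limma, adjusted p = 1.3e-04). Of 15 BET partners 14 symbols were found in the annotation and 12 had 31 regions. None of their 14 shared regions passed for fold enrichment, and 4 (28.6%, beside 14.7% of all shared regions) passed as lower in MDV-R for IP tags, 2 in ATAD5 (−0.61 and −0.64), 1 in BICRA (−0.55) and 1 in CDK9, the kinase of the elongation factor P-TEFb (−0.44), with adjusted p of 0.0015 to 0.0363.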

How the data were processed

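Per the methods and labels, reads were mapped by the authors to hg38 (STAR 2.7.0, GENCODE), unique and deduplicated alignments were retained (SAMtools 1.10), and MACS2 (3.0.0a6 per the submitters' processing notes) called peaks separately for every replicate against its input, without model building. The extension was 100 nt and the effective genome 300 Mb. The deposited lists hold a summit, a fold enrichment (a ratio), −log10 p- and q-values and a score per peak, the score being the −log10 q-value times 10 without its decimals at over 99.7% of peaks. The deposited merged list gives positions without values.

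IP tags and local background were solved from fold enrichment and −log10 p as whole tags (within 0.002 of the −log10 p), and library sizes from the lowest background. They are reconstructions under the stated parameters. Regions counted as called with at least 1 bp of overlap, and the strongest peak by −log10 p stood for a region. Its values are those at its own summit, which can differ in position between lists. Summits were classed with GENCODE release 44 on hg38, coordinates being 1-based. limma (3.58.1, R 4.3.3) was run on log2 values over all regions called in all 8 lists, with Benjamini-Hochberg adjustment over them and a threshold of 0.05. In 6 regions tags could not be recovered in every list. Calls were compared with Fisher's exact test and peaks per gene with exact permutation tests over lists. The adjustment of the latter runs over all genes and not, as first planned, over these genes. Python 3.11.15, scipy 1.17.1 and bedtools 2.31.1 were used.

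The genes, lists and tests were chosen with earlier results of these data known. All 6 genes were described, and at most 5 genes per list were named with values, those with a region called in 4 lists of 1 line and 0 of the other or passing limma, in the order of the absolute log2 difference of fold enrichment. Same-numbered replicates were uncorrelated (−0.07 to 0.03 between their deviations from the line means). The study names no pairing. Values centered per list cannot show a shift of whole libraries, so that the correlations do not settle whether the numbers pair the samples. Alternatives were a stricter q-value, lists of equal size, a larger overlap, other scalings, a tag minimum, the canonical transcript alone, other motif settings, a replicate block and each list left out. The scripts were tested on simulated data. Input libraries have no list of their own. Some genes are not reported here.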

Additional observations from a re-analysis of the deposited data

Results flagged for a closer look

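In 7 of 58 groups of 4 lists the highest or lowest value stood apart from the other 3 by more than Dixon's critical value. For continuous, normally distributed values chance does so in about 1 of 20 groups. The groups here include whole counts and values of the same peak, so that no excess can be read from 7 of 58. In MDV-R replicate 4 BRD2 region 1 had a fold enrichment of 30.2 (7.68 to 11.5 in the other MDV-R lists) and 72.5 CPM of summit IP tags (52.1 to 54.5). These were taken at a summit past the end of the region. Peak length stood apart from the other lists of the same line in 3 regions. It was 712 nt in MDV-R replicate 3 in SPOP region 1 (1063 to 1118 nt in the other MDV-R lists). In TRIM24 region 1 it was 885 nt in MDV-R replicate 2 (774 to 782 nt in the other MDV-R lists). In BRD3 region 9 it was 1021 nt in C4-2B replicate 2 (990 to 995 nt in the other C4-2B lists). For peaks per gene CUL3 had 0 in C4-2B replicate 1 and TRIM24 had 2 in C4-2B replicate 3, beside 1 in each of the other C4-2B lists. Whenever 3 counts are equal and the other differs, the group is flagged.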

How the results depend on the processing

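Calls in 1 line alone stayed at 0 with a −log10 q of at least 5, lists of equal size, an overlap of 50% or any overlap with a span, and ranged from 0 to 1 when a list was left out (1 each without C4-2B replicate 2 or MDV-R replicate 4). Regions called in all lists numbered 5 to 6 under the same settings and 6 to 10 with a list left out, 10 without C4-2B replicate 1. For fold enrichment 22 regions passed among those with at least 20 IP tags in every list, 95 to 405 with a list left out, and 0 to 1 of the 6 (BRD3 region 9 without MDV-R replicate 3). Without centering 3 of the 6 passed, and SPOP region 1 (0.21) and BRD3 region 7 (0.27) changed sign. For IP tags 2736 to 4008 regions passed with a list left out and none of the 6; centered, 4686 passed (46.3% higher, against 57.4%), and BRD3 region 7 was at −0.039. For background 510 to 3032 regions and 0 to 4 of the 6 passed with a list left out, the most without MDV-R replicate 3; centered, 1 of the 6 passed, and BRD3 region 7 was at 0.16. With a list left out, SPOP region 1 changed sign for background (−0.12 to 0.19), BRD3 region 7 for fold enrichment (−0.33 to 0.029) and IP tags (−0.056 to 0.17), and BRD3 region 9 for IP tags (−0.13 to 0.022). With the replicate number as a replicate block, 221 regions passed for fold enrichment, 3585 for IP tags and 1281 for background, with 0, 0 and 2 of the 6; same-numbered lists did not deviate together. The difference in peaks per gene, MDV-R minus C4-2B, ranged with a list left out from 1.67 to 3.33 in BRD2, 2.58 to 3.67 in BRD3, 0 to 0.333 in CUL3 and 0.0833 to 0.5 in TRIM24, and with lists of equal size was 0.5 in BRD2, 2.25 in BRD3, 0.5 in CUL3 and −0.25 in TRIM24; both alternatives were added after seeing the data. GGAC within 25 nt was found at 4 regions, and DRACH within 50 nt at 18. With the canonical transcript alone 2 regions, both in BRD2 and 1 of them classed by its midpoint, changed class, which gave 2 summits in 5′ UTRs. The causes were not tested. A region without a peak in a list has no value there, so that its absence from the RNA cannot be read from the list.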
